A study of Arabidopsis thaliana with 12 samples.

Results

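The B-box (BBX) family of Arabidopsis thaliana comprises the 32 loci numbered BBX1 to BBX32, and each of the 32 had a row in the table of 33655 genes. Members were taken by locus identifier from the family numbering, and this rule uses no measured value. They fall into structural group I with 6 members, group II with 7, group III with 4, group IV with 8 and group V with 7. Groups I and II hold CONSTANS (CO) and CO-like proteins with tandem B-boxes and a CCT domain, and group III pairs a single B-box with a CCT domain. Members of group IV carry tandem B-boxes and no CCT domain, and those of group V carry a single B-box.

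A B-box is a zinc-binding fold through which these proteins contact each other and other transcription factors. Several members act with HY5, the bZIP factor that drives seedling greening, either as cofactors that it needs to activate genes or as partners that restrain it, and CO itself controls flowering by day length. In darkness the COP1/SPA ubiquitin ligase removes HY5 and many BBX proteins, and light perceived by phytochromes relieves that removal.

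RNA came from whole seedlings of b''ab''b, a double mutant for the regulatory subunits B''α and B''β of protein phosphatase 2A (PP2A), and of the wild type Col-0. Both genotypes were sown on MS medium without sucrose, kept cold in the dark for 3 days to start germination, exposed to white light (25 µmol, per square metre and second) for 3 h, and grown in darkness for 4 days at 22 °C. Red light (8 µmol, same unit) was then switched on for 1 h, or the seedlings stayed in the dark, which gave 4 groups of 3 libraries: double mutant in red light, double mutant in the dark, wild type in red light and wild type in the dark. The labels name no alleles for the double mutant and do not say whether the replicates were grown separately, so the tests weigh only library-to-library spread, which may be technical.

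The 3′ Tag-Seq libraries, which count reads near the 3′ end of transcripts, held 2874429 to 4979055 gene counts each. On these totals 3 counts correspond to between 0.603 and 1.04 CPM (counts scaled to the usual common library total). The levels below use library sizes scaled by TMM factors, on which 3 counts come out slightly different, such as 0.578 CPM in wild type dark replicate 1. The transcript of B''α (AT5G44090) averaged 4.23 ± 0.351 CPM in double mutant red libraries and 5.83 ± 0.652 CPM in double mutant dark libraries, against 28.9 ± 1.08 and 27.9 ± 3.39 CPM in the wild type (SD, n = 3 each). B''β (AT1G03960) was at 1.40 ± 0.656 and 1.10 ± 0.252 CPM in the double mutant, against 2.75 ± 0.819 and 4.19 ± 0.671 CPM in the wild type, and did not pass the test (adjusted p = 0.999 in red light and 0.226 in the dark). A 3′ tag need not lie in a disrupted part of a gene, so it checks these labels only in part. Double mutant dark replicate 3 and wild type dark replicate 1 lay apart from the other dark libraries on the second principal component. The 4 green tissue markers rose in both genotypes, with summed levels of 22800 to 25590 CPM in red light and 18720 to 20670 CPM in the dark in the double mutant, and 23290 to 24820 against 19490 to 20370 CPM in the wild type. Both markers of etiolated seedlings, PORA and HLS1, fell in both genotypes, with sums of 1141 to 1361 against 1917 to 2027 CPM in the double mutant and 1255 to 1452 against 1895 to 2135 CPM in the wild type. The part of these shifts in the BBX values below was not tested, and in whole seedlings fewer cells of a type and less RNA per cell cannot be told apart. None of the markers of root hairs or dividing cells passed a test, floral markers had next to no counts, and of the endodermis markers SCR rose by 0.30 and 0.31 log2 units in the double mutant and the wild type. Of the 4 seed storage markers only OLEO1 was tested, and it did not pass. Double mutant dark replicate 1 stood out with 35 CRA1, 47 CRU3, 7 SESA1 and 29 OLEO1 counts. Summed levels of these markers were 1.185 to 40.01 CPM in double mutant dark and 1.374 to 7.201 CPM in double mutant red libraries. In the wild type they were 2.505 to 6.355 CPM in the dark and 3.147 to 5.147 CPM in red light.

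Within 1 h of red light the BBX family changed in both directions, with 13 members higher and 8 lower in both genotypes. In double mutant seedlings 13 members were higher in red light than in the dark, against a background of 10.7% of the 18487 genes tested, and 8 were lower, against 5.27% (edgeR quasi-likelihood test, Benjamini-Hochberg adjusted p under 0.05 over all genes tested). In wild type seedlings 13 members were higher, against 10.6% of genes, and 9 were lower, against 4.68%. The same 13 rose in both genotypes and the same 8 fell in both, BBX13 passed in the wild type alone, 7 tested members passed in neither, and no member had opposite calls. Of the 32 members, 29 had enough counts to be tested, and BBX9, BBX10 and BBX26 did not. BBX11, BBX29, BBX30, BBX31 and BBX32 would have passed the count filter on the red libraries but not on the dark ones. BBX23 would have passed only on the dark ones and BBX1 on neither alone. The counts, medians and ranks here therefore describe the tested members and support nothing further. The median absolute log2 fold change of the tested members was 1.33 in the double mutant and 1.27 in the wild type, beside 0.21 and 0.21 for all genes tested.

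**Figure D1:**
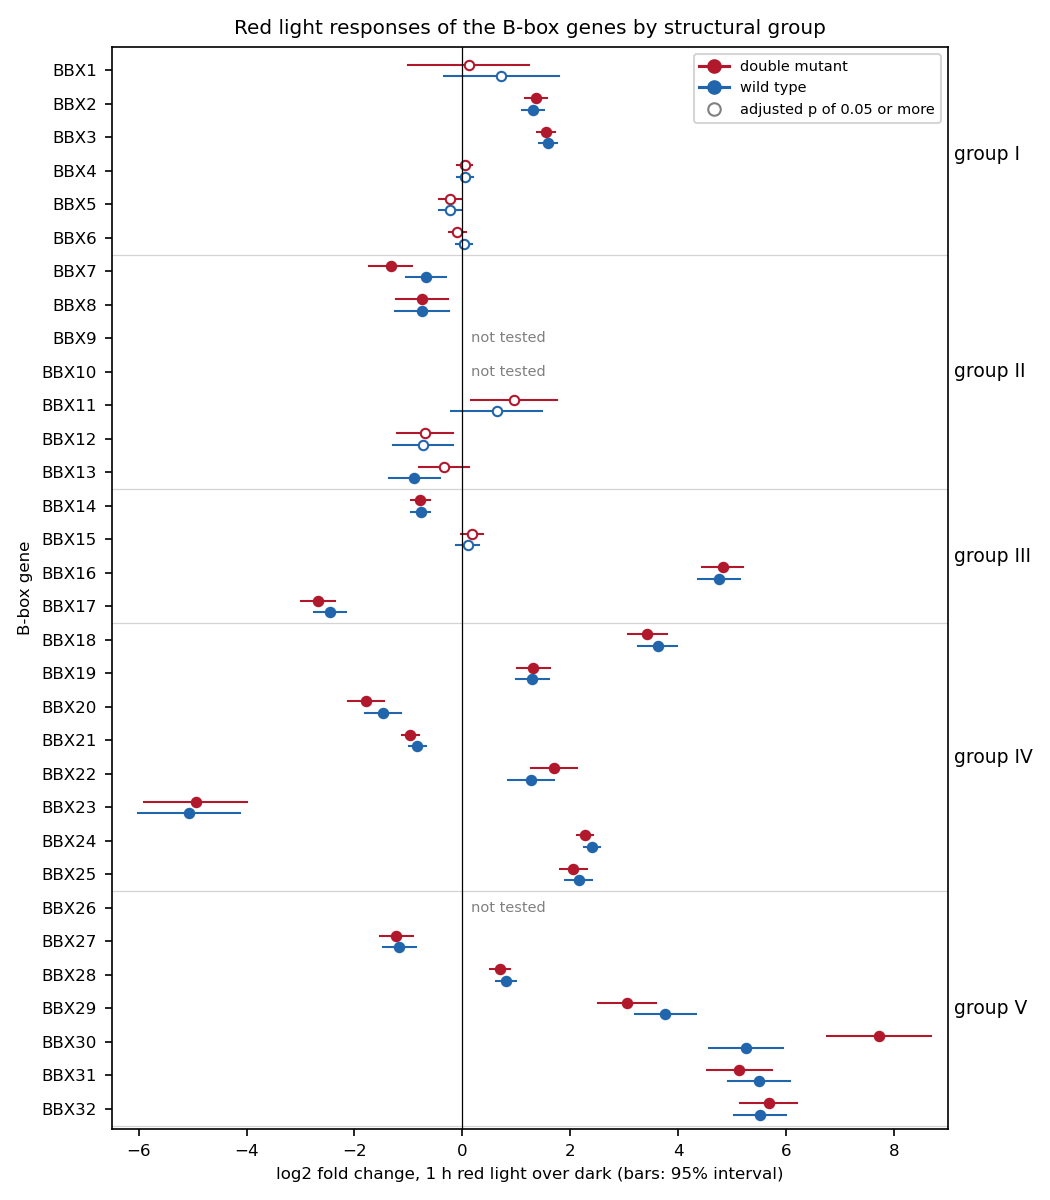
Red light responses of the BBX genes, ordered by structural group. The horizontal axis gives the log2 fold change of 1 h red light over dark with its 95% interval from the edgeR fit, with the double mutant (red) above the wild type (blue) for each gene, filled where the adjusted p is under 0.05. Points of the same gene lie close together for most members, with BBX23 far to the left and BBX16, BBX30, BBX31 and BBX32 far to the right in both genotypes.

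The calls are described next by structural group, with no test between groups. In group I 2 of 6 members rose and none fell. In group II none rose, while 2 of the 5 tested members fell in the double mutant and 3 in the wild type. Group III had 1 member that rose and 2 that fell of 4, group IV had 5 that rose and 3 that fell of 8, and group V had 5 that rose and 1 that fell of 6 tested, in both genotypes alike. The median log2 fold changes in the double mutant were 0.077 in group I, -0.70 in group II, -0.30 in group III, 1.51 in group IV and 4.09 in group V. The corresponding wild type medians were 0.38, -0.73, -0.34, 1.28 and 4.51, beside medians of -0.014 and -0.021 for all genes tested in the double mutant and the wild type. In group V, BBX29, BBX30, BBX31 and BBX32 would have passed the count filter on the red libraries but not on the dark ones. The group V medians thus rest mostly on members admitted through the condition where they are high, and they are no support for a difference between groups.

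**Figure D2:**
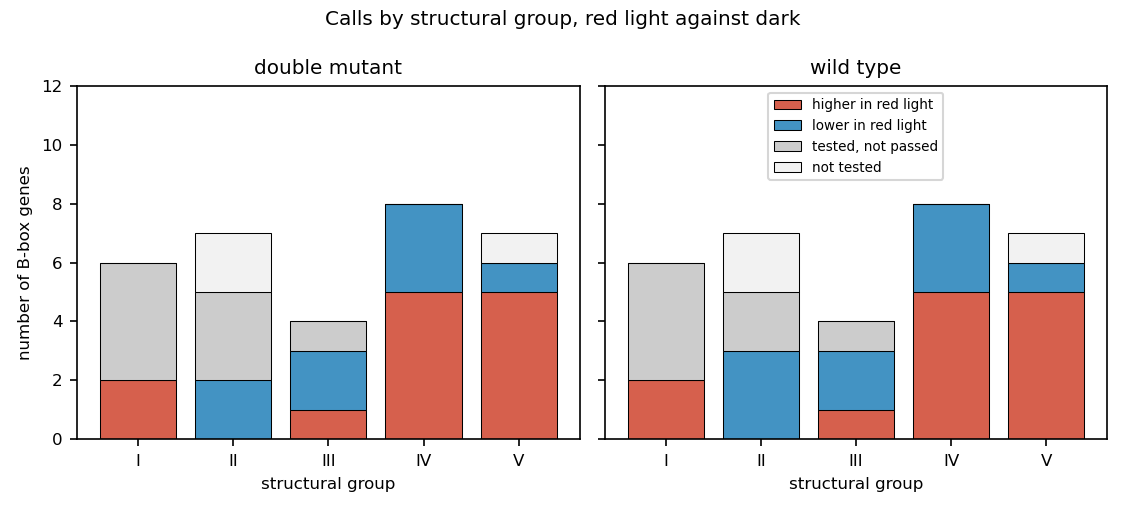
Calls by structural group. Bars give the number of BBX genes in groups I to V that were higher in red light, lower in red light, tested without passing, or not tested, with the double mutant on the left and the wild type on the right. All 8 members of group IV passed the test in both genotypes, and group II holds no riser.

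In group I, BBX2 and BBX3 rose about equally in both genotypes, and CO and the other 3 members did not pass the test. BBX2 (AT5G15850, chr5:5176091-5177897, minus strand) and BBX3 (AT3G02380, chr3:487069-489467, minus strand), also named COL1 and COL2, are the closest relatives of CO and are known for clock-driven transcript rhythms. Double mutant BBX2 levels were 106, 118 and 102 CPM in red light, against 45.4, 40.5 and 41.5 CPM in the dark. Wild type BBX2 levels were 109, 110.0 and 113 CPM in red light, against 50.1, 41.1 and 41.6 CPM in the dark. Every red library of BBX2 was above every dark library, with log2 fold changes of 1.36 ± 0.096 (SE) in the double mutant and 1.31 ± 0.095 in the wild type (adjusted p = 1.41e-10 and 2.49e-10). Double mutant BBX3 levels were 245, 232 and 226 CPM in red light, against 76.3, 83.2 and 80.8 CPM in the dark. Wild type BBX3 levels were 232, 251 and 239 CPM in red light, against 85.3, 76.7 and 78.0 CPM in the dark. BBX3 thus rose by 1.54 ± 0.078 log2 units in the double mutant (adjusted p = 4.43e-13) and by 1.58 ± 0.078 in the wild type (adjusted p = 3.23e-13), again with no overlap between red and dark libraries.

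Both risers of group I share their place in the genome with a gene on the opposite strand, and the labels do not say whether the counting used strand. The long noncoding RNA AT5G15845 covers the whole of BBX2 and had mean levels of 105.7 CPM in red light and 44.1 CPM in the dark in the double mutant, a log2 fold change of 1.27, and of 104.9 and 44.7 CPM in the wild type, a change of 1.22. Over the 12 libraries AT5G15845 had 3637 counts, beside 3717 for BBX2. AT3G02370 overlaps the 3′ end of BBX3 and had 979 counts, beside 7722 for BBX3. Its mean levels were 29.55 CPM in red light and 10.27 CPM in the dark in the double mutant, a log2 fold change of 1.53. In the wild type they were 29.82 and 10.81 CPM, a change of 1.42. If strand was not used, reads in the stretches that these pairs share cannot be told apart. The part of such reads in the rises was not tested. The 3′ ends of BBX8, BBX12, BBX14, BBX17, BBX20 and BBX25 also lie in a gene of the opposite strand, which makes 8 such members in all. The partners of BBX14, BBX17 and BBX20 had 7, 6 and 3 counts over the 12 libraries. Those of BBX8, BBX12 and BBX25 had 593, 422 and 3805 counts, beside 411, 312 and 3554 for the members. CO overlaps AT5G15843 on the opposite strand over 1967 bases, though not at its 3′ end, with 80 counts beside 94 for CO. The longest exact run that the last 500 exonic bases of any pair of members share is 23 bases (BBX12 with BBX13, and BBX2 with BBX5).

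CO (BBX1; AT5G15840, chr5:5170162-5173085, minus strand), the activator of the florigen gene FT in long days, had only 10, 4 and 8 counts in the double mutant red libraries and 4, 11 and 6 in its dark libraries. Wild type CO had 3, 10 and 19 counts in red light and 10, 5 and 4 in the dark. Its log2 fold changes were 0.12 ± 0.54 in the double mutant and 0.72 ± 0.51 in the wild type (adjusted p = 0.925 and 0.415), with 95% intervals of -1.003 to 1.23 and -0.35 to 1.79. BBX4 (COL3, AT2G24790), a promoter of seedling development in red light, stood at 206 to 216 CPM in red light and 195 to 213 CPM in the dark in the double mutant, with log2 fold changes of 0.038 in the double mutant and 0.047 in the wild type. The 95% intervals for BBX4, -0.11 to 0.18 and -0.099 to 0.19, leave room for a change of at most 0.19 in size. BBX5 (COL4, AT5G24930), a flowering repressor, had a fold change of -0.23 in the double mutant and -0.23 in the wild type, and BBX6 (COL5, AT5G57660) of -0.092 and 0.034, with adjusted p between 0.143 and 0.832.

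In group II the tested members with a call all fell, by less than 1 log2 unit except for BBX7 in the double mutant. BBX7 (COL9, AT3G07650, chr3:2441565-2444532, plus strand) and BBX8 (COL10, AT5G48250, chr5:19561319-19563832, minus strand) are known from cold tolerance, and BBX7 also delays flowering. Double mutant BBX7 levels were 5.72, 7.48 and 6.99 CPM in red light, against 17.3, 19.1 and 14.4 CPM in the dark. Wild type BBX7 levels were 11.5, 8.94 and 9.89 CPM in red light, against 15.0, 17.6 and 16.3 CPM in the dark. BBX7 fell by 1.33 ± 0.19 log2 units in the double mutant (adjusted p = 1.28e-05) and by 0.68 ± 0.18 in the wild type (adjusted p = 0.00947), and its red libraries were all below its dark libraries in both. BBX8 fell by 0.75 ± 0.23 in the double mutant and 0.75 ± 0.24 in the wild type, close to the threshold (adjusted p = 0.028 and 0.0356). That call was lost in 6 of 20 alternative fits in each genotype, including DESeq2, with adjusted p of 0.0701 to 0.141 in the double mutant and 0.081 to 0.182 in the wild type.

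BBX13 (COL15, AT1G28050) was the member called in the wild type alone. Double mutant BBX13 levels were 7.10, 8.59 and 9.73 CPM in red light, against 12.6, 6.97 and 12.8 CPM in the dark. Wild type BBX13 levels were 6.62, 7.58 and 6.52 CPM in red light, against 13.3, 12.4 and 12.5 CPM in the dark. The wild type groups did not overlap, while the second dark library of the double mutant lay below all of its red libraries, and the changes were -0.34 ± 0.22 (adjusted p = 0.371) and -0.89 ± 0.23 (adjusted p = 0.0071). The difference between these responses, 0.55 with a 95% interval of -0.11 to 1.21, did not pass its own test (adjusted p = 1). BBX12 (COL14, AT2G33500) had log2 fold changes of -0.70 and -0.73 without passing (adjusted p = 0.0647 and 0.0694). Its red and dark libraries did not overlap in either genotype. The share of all genes whose red and dark libraries separate was not counted, so such separation is only described, here and for other members. AT2G47890, the member numbered BBX11, had fold changes of 0.96 in the double mutant and 0.64 in the wild type and did not pass (adjusted p = 0.105 and 0.35); a noncoding gene on the same strand, AT2G47895, covers its 3′ end.

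BBX9 and BBX10 stayed below the filter of the test. BBX10 (COL12, AT3G21880, chr3:7706257-7708346, plus strand) had no count in any of the 6 dark libraries, and had 2, 1 and 2 counts in double mutant red libraries and 2, 4 and 4 in wild type red libraries. The exact 95% interval of the ratio of summed counts, red over dark, began at 0.953 in the double mutant (5 counts against 0), which includes no change, and at 2.20 in the wild type (10 counts against 0), with no upper limit in either and for counting error only. BBX9 (COL11, AT4G15250, chr4:8709767-8711526, minus strand) had 1 count over the 12 libraries together, in double mutant dark replicate 1.

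Group III held members at both ends of the response. BBX16 (COL7, AT1G73870, chr1:27778984-27780809, plus strand), which promotes seedling development downstream of the chloroplast regulator GLK1, was low in every dark library. Double mutant BBX16 levels were 69.6, 58.4 and 57.4 CPM in red light, against 1.70, 2.70 and 1.97 CPM in the dark. Wild type BBX16 levels were 57.1, 64.7 and 69.5 CPM in red light, against 1.93, 2.76 and 2.50 CPM in the dark. Its log2 fold changes of 4.82 ± 0.19 in the double mutant and 4.75 ± 0.18 in the wild type (adjusted p = 4.57e-15 and 5.39e-15) ranked 15 and 9 from the top of all genes tested. BBX17 (COL8, AT1G49130, chr1:18174373-18176389, minus strand) moved the other way. Double mutant BBX17 levels were 8.70, 5.54 and 10.7 CPM in red light, against 49.2, 54.8 and 56.9 CPM in the dark. Wild type BBX17 levels were 11.0, 10.8 and 10.3 CPM in red light, against 57.4, 55.7 and 63.9 CPM in the dark. BBX17 fell by 2.68 ± 0.15 log2 units in the double mutant and by 2.45 ± 0.15 in the wild type (adjusted p = 3.95e-12 and 8.18e-12), which placed it 11 and 10 from the bottom of all genes tested. BBX14 (COL6, AT1G68520) fell by 0.78 ± 0.087 and 0.78 ± 0.087 log2 units in the double mutant and the wild type (adjusted p = 3.45e-07 and 3.59e-07), and BBX15 (COL16, AT1G25440) did not pass at 0.18 and 0.096.

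Group IV contains known cofactors and some of the antagonists of HY5, and all 8 members passed in both genotypes. The members that rose were BBX18, BBX19, BBX22, BBX24 and BBX25, and those that fell were BBX20, BBX21 and BBX23. BBX18 (DBB1a, AT2G21320, chr2:9126263-9127987, plus strand) and BBX19 (DBB1b, AT4G38960, chr4:18160903-18163341, plus strand) are repressors of seedling photomorphogenesis. Double mutant BBX18 levels were 46.5, 58.7 and 43.7 CPM in red light, against 4.41, 4.94 and 4.34 CPM in the dark. Wild type BBX18 levels were 60.8, 52.0 and 56.9 CPM in red light, against 4.43, 5.79 and 3.44 CPM in the dark. BBX18 rose by 3.43 ± 0.17 log2 units in the double mutant and 3.62 ± 0.17 in the wild type (adjusted p = 5.05e-13 and 2.1e-13), with a wide gap between red and dark libraries. Double mutant BBX19 levels were 30.7, 29.4 and 27.0 CPM in red light, against 12.9, 9.21 and 13.0 CPM in the dark. Wild type BBX19 levels were 29.9, 31.7 and 29.2 CPM in red light, against 11.2, 13.0 and 13.2 CPM in the dark. BBX19, which like BBX18 acts with the clock protein ELF3, rose by a smaller 1.32 ± 0.15 and 1.296 ± 0.15 (adjusted p = 3.44e-07 and 3.82e-07).

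BBX24 (STO, AT1G06040, chr1:1828340-1829983, minus strand) and BBX25 (STH, AT2G31380, chr2:13381767-13383470, plus strand) form pairs with HY5 that restrain its activity. Double mutant BBX24 levels were 478, 476 and 474 CPM in red light, against 101, 92.1 and 102 CPM in the dark. Wild type BBX24 levels were 476, 508 and 489 CPM in red light, against 90.1, 95.1 and 94.2 CPM in the dark. With little spread between replicates, BBX24 rose by 2.27 ± 0.072 log2 units in the double mutant and 2.40 ± 0.072 in the wild type, and its adjusted p of 1.51e-16 and 8.51e-17 was the lowest of the family in both. Double mutant BBX25 levels were 122, 119 and 109 CPM in red light, against 35.6, 29.0 and 21.9 CPM in the dark. Wild type BBX25 levels were 118, 126 and 120.3 CPM in red light, against 24.8, 30.1 and 27.2 CPM in the dark. BBX25 rose by 2.05 ± 0.12 and 2.16 ± 0.12 in the double mutant and the wild type (adjusted p = 5.46e-12 and 2.78e-12). AT2G31390, the gene on the opposite strand at its 3′ end, changed by 0.10 in the double mutant and 0.14 in the wild type and did not pass.

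BBX20, BBX21, BBX22 and BBX23 are known as promoters of photomorphogenesis, and they did not move together. BBX22 (LZF1, AT1G78600, chr1:29566863-29568931, plus strand) was the one that rose. Double mutant BBX22 levels were 20.6, 21.1 and 26.7 CPM in red light, against 8.14, 4.94 and 8.09 CPM in the dark. Wild type BBX22 levels were 18.1, 20.3 and 21.4 CPM in red light, against 6.36, 8.55 and 10.6 CPM in the dark. The changes of BBX22 were 1.70 ± 0.20 and 1.27 ± 0.20 log2 units in the double mutant and the wild type (adjusted p = 9.83e-07 and 5.66e-05). BBX20 (BZS1, AT4G39070, chr4:18204631-18206684, minus strand), a HY5 cofactor that also responds to brassinosteroid, fell. Double mutant BBX20 levels were 10.8, 14.4 and 8.74 CPM in red light, against 41.7, 37.3 and 37.9 CPM in the dark. Wild type BBX20 levels were 14.2, 10.02 and 10.3 CPM in red light, against 30.4, 33.1 and 33.2 CPM in the dark. BBX20 fell by 1.79 ± 0.16 log2 units in the double mutant and 1.47 ± 0.16 in the wild type (adjusted p = 6.44e-09 and 2.06e-07). BBX21 (STH2, AT1G75540, chr1:28365824-28367738, plus strand), the best known HY5 cofactor of the family, fell to 119.5 ± 6.13 CPM in red light, against 234 ± 15.3 CPM in the dark, in the double mutant, and to 128 ± 5.18 against 229 ± 10.03 CPM in the wild type (SD, n = 3 each). These falls of 0.97 ± 0.077 and 0.84 ± 0.077 log2 units passed with adjusted p of 1.22e-09 and 1.44e-08.

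BBX23 (AT4G10240, chr4:6368829-6369950, minus strand) fell almost to 0 within the hour. Double mutant BBX23 counts were 5, 0 and 0 in red light, against 44, 50 and 77 in the dark. Wild type BBX23 counts were 1, 3 and 1 in red light, against 68, 53 and 54 in the dark. All 5 counts of the double mutant in red light came from replicate 1. In CPM the double mutant averaged 0.382 ± 0.661 in red light and 13.8 ± 2.21 in the dark, and the wild type 0.427 ± 0.334 and 14.9 ± 1.92 (SD, n = 3 each). Its fitted falls of 4.95 ± 0.46 and 5.07 ± 0.46 log2 units (adjusted p = 1.7e-08 and 1.04e-08) were the largest among the 18487 genes tested in each genotype. With 5 red counts in each genotype, the size and rank of this fall are poorly fixed. Summed counts scaled to depth made BBX23 lower in red light by a ratio of 32.9 (95% interval 13.8 to 102.6, counting error only) in the double mutant and 35.6 (15.0 to 111) in the wild type.

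**Figure D3:**
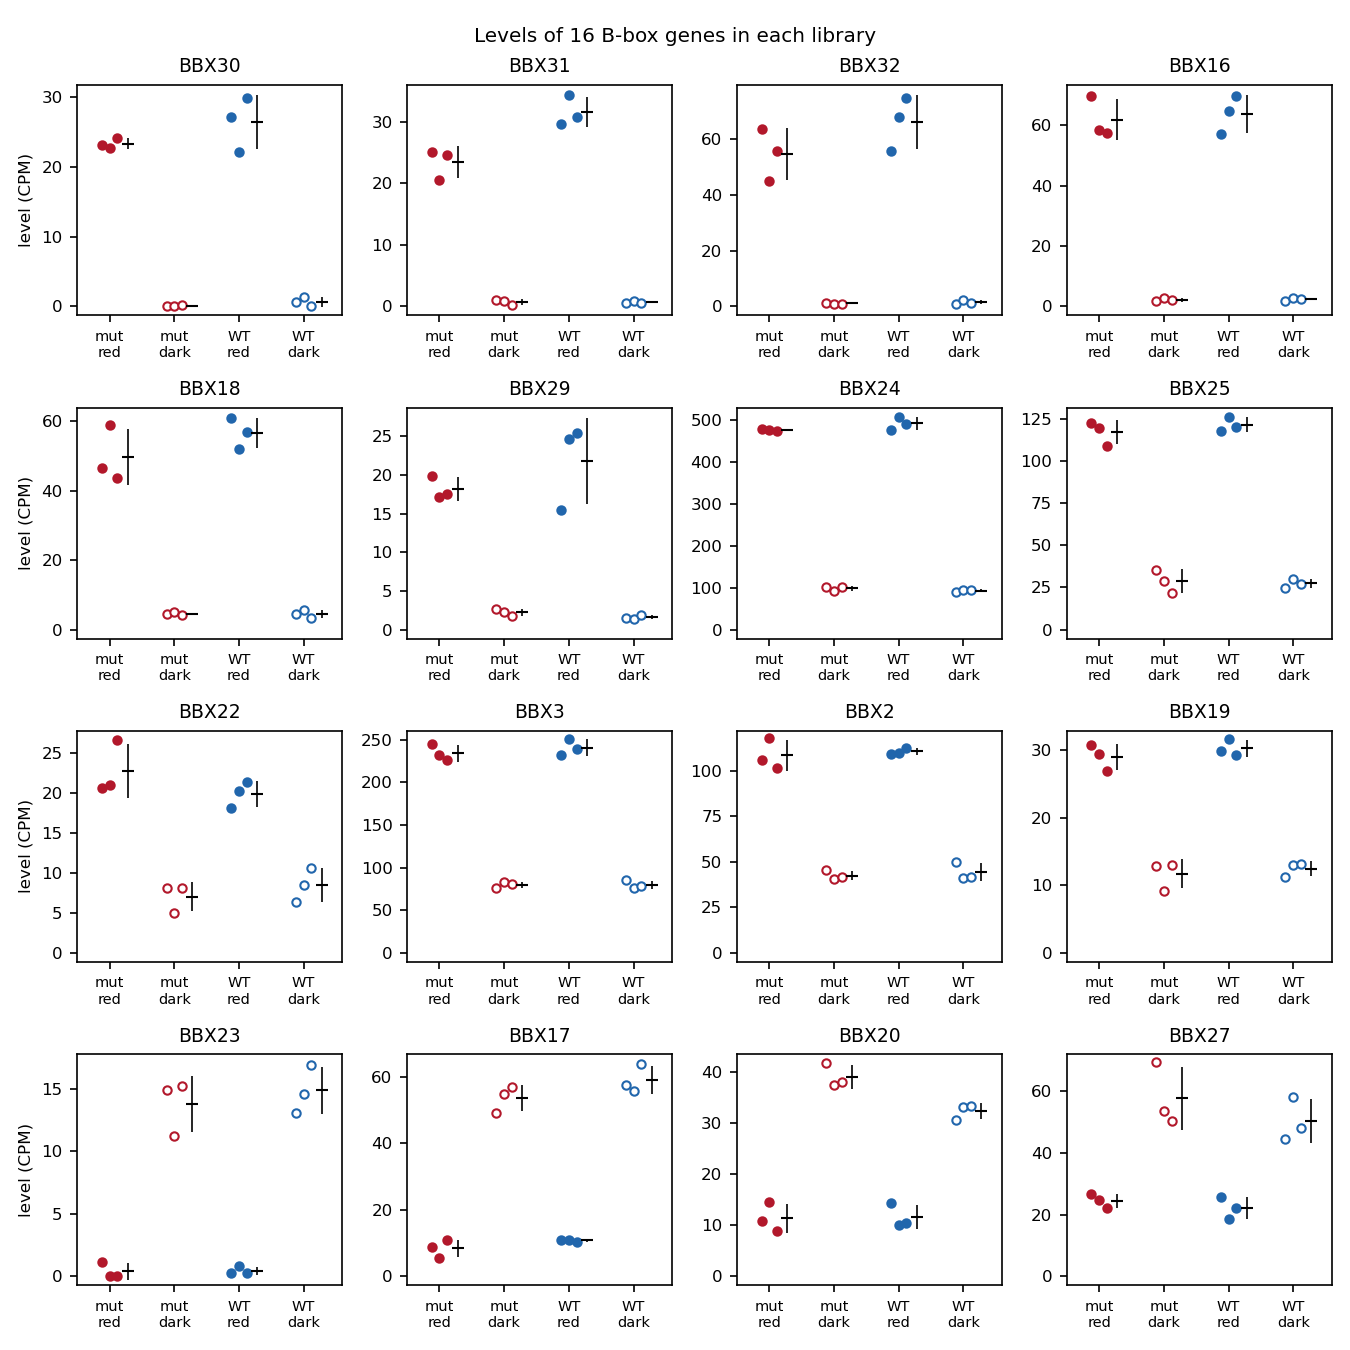
Levels of 16 BBX genes in each library. Each panel gives CPM on a linear axis for double mutant red, double mutant dark, wild type red and wild type dark libraries, with a point for each library and a bar for the mean ± SD of 3. In the upper 3 rows each red library lies above each dark library of its genotype, and in the bottom row (BBX23, BBX17, BBX20, BBX27) each lies below.

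The steepest rises of the family were in group V, among the small proteins with a single B-box. BBX30 (miP1b, AT4G15248, chr4:8708841-8709482, plus strand) and BBX31 (miP1a, AT3G21890, chr3:7708833-7709933, minus strand) are microProteins that bridge CO to the TOPLESS corepressor. BBX30 had 101, 82 and 97 counts in double mutant red libraries and 0, 0 and 1 in its dark libraries, which is 23.1, 22.7 and 24.2 CPM against 0, 0 and 0.197 CPM. Wild type BBX30 had 111, 82 and 133 counts in red light and 3, 5 and 0 in the dark, or 27.2, 22.2 and 29.9 CPM against 0.578, 1.38 and 0 CPM. The dark libraries were at or near 0 throughout, so the size of the rise is poorly fixed: the ratio of summed counts was 291 (95% interval 51.8 to 11540) in the double mutant, where it rests on 1 dark count, and 40.1 (20.1 to 93.6) in the wild type. The fitted log2 fold changes were 7.72 ± 0.47 and 5.25 ± 0.33 (adjusted p = 9.4e-12 and 2.16e-11). Double mutant BBX31 levels were 25.2, 20.5 and 24.7 CPM in red light, against 1.02, 0.899 and 0.197 CPM in the dark. Wild type BBX31 levels were 29.6, 34.4 and 30.8 CPM in red light, against 0.578, 0.827 and 0.626 CPM in the dark. BBX31 rose by 5.13 ± 0.29 log2 units in the double mutant and 5.50 ± 0.28 in the wild type (adjusted p = 3.02e-12 and 4.8e-13), and its dark libraries held 1 to 4 counts each.

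BBX32 (EIP6, AT3G21150, chr3:7412445-7413727, minus strand), which restrains the BBX21 and HY5 pair, also rose in both genotypes. Double mutant BBX32 levels were 63.4, 44.9 and 55.7 CPM in red light, against 1.36, 0.899 and 0.987 CPM in the dark. Wild type BBX32 levels were 55.6, 67.7 and 74.9 CPM in red light, against 0.963, 2.21 and 1.25 CPM in the dark. The rises of 5.68 ± 0.25 and 5.51 ± 0.24 log2 units (adjusted p = 4.83e-14 and 2.62e-14) placed BBX32 5 and 4 from the top of all genes tested in the double mutant and the wild type, with BBX30 at 1 and 6 and BBX31 at 11 and 5. These ranks rest on dark libraries with few counts. AT3G21140, a gene on the same strand that overlaps its 3′ end by 13 bases, did not pass in either genotype. BBX29 (AT5G54470, chr5:22114304-22115539, minus strand) is a close relative of BBX28 and also rose. Double mutant BBX29 levels were 19.9, 17.2 and 17.5 CPM in red light, against 2.71, 2.25 and 1.78 CPM in the dark. Wild type BBX29 levels were 15.4, 24.6 and 25.4 CPM in red light, against 1.54, 1.38 and 1.88 CPM in the dark. The changes of BBX29 were 3.05 ± 0.26 and 3.76 ± 0.27 log2 units in the double mutant and the wild type (adjusted p = 3.96e-09 and 2.36e-10), and wild type red replicate 1 was lower than the other wild type red libraries.

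BBX28 (AT4G27310), which binds HY5 and lowers its activity, rose less steeply, to 87.0 ± 8.46 CPM in red light, against 53.4 ± 2.21 CPM in the dark, in the double mutant, and to 90.4 ± 0.583 against 51.7 ± 1.65 CPM in the wild type (SD, n = 3 each). These are log2 fold changes of 0.70 ± 0.090 and 0.81 ± 0.090 (adjusted p = 2.5e-06 and 3.24e-07). BBX27 (AT1G68190, chr1:25558794-25561248, plus strand) was the only tested member of group V that fell. Double mutant BBX27 levels were 26.6, 24.6 and 22.0 CPM in red light, against 69.5, 53.5 and 50.3 CPM in the dark. Wild type BBX27 levels were 25.7, 18.4 and 22.2 CPM in red light, against 44.5, 58.2 and 48.2 CPM in the dark. BBX27 fell by 1.22 ± 0.14 and 1.17 ± 0.15 log2 units in the double mutant and the wild type (adjusted p = 7.24e-07 and 2.05e-06). BBX26 (AT1G60250) had no count in any library.

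The promoters of the members were read from the TAIR10.1 genome, as the 250 bases before the annotated start on the strand of the gene. Printed here are those of the 4 steepest risers, of the steepest faller and of BBX24. The rise of BBX24 ranked 130 and 103 from the top of all genes tested in the double mutant and the wild type, so it is not at an end of the response. The G-box CACGTG and the evening element AAATATCT are in capitals wherever either occurs on either strand.
BBX30 (chr4:8708591-8708840, plus strand): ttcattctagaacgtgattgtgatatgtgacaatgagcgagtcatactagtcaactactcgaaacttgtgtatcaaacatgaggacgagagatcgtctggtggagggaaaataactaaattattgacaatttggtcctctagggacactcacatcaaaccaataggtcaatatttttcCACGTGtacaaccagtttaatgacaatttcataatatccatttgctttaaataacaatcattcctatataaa
BBX31 (chr3:7709934-7710183, minus strand): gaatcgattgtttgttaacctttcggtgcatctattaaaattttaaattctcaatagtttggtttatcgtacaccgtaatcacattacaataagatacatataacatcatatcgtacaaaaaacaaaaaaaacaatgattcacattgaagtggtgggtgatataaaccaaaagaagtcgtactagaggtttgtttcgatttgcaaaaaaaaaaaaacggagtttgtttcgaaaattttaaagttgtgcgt
BBX32 (chr3:7413728-7413977, minus strand): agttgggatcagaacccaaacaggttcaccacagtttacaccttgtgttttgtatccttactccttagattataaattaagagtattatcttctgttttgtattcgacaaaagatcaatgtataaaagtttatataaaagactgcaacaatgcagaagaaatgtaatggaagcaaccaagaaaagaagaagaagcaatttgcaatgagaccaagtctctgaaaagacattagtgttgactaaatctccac
BBX16 (chr1:27778734-27778983, plus strand): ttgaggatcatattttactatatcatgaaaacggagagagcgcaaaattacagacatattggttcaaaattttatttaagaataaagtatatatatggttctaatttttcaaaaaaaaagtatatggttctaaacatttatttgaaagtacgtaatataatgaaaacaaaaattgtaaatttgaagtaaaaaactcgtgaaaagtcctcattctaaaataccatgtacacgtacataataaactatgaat
BBX23 (chr4:6369951-6370200, minus strand): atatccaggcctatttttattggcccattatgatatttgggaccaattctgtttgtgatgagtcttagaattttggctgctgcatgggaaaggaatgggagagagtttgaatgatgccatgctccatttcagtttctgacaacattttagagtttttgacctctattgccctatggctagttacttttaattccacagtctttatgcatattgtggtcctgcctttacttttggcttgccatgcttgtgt
BBX24 (chr1:1829984-1830233, minus strand): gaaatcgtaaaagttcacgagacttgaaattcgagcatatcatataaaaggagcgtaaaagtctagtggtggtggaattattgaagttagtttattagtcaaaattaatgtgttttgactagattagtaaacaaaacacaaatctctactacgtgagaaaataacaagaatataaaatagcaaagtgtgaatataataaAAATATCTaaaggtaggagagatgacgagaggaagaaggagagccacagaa
BBX30 holds the G-box, a site bound by HY5 and PIF proteins, at position -72 from the start, and BBX24 holds the evening element at position -51. Neither string is in the windows of BBX31, BBX32, BBX16 or BBX23.

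Over the family, the G-box was in 4 of 32 such windows (BBX5, BBX9, BBX10 and BBX30), or 12.5%, beside 6.49% of the 27443 protein-coding genes. The evening element was in 4 (BBX3, BBX8, BBX13 and BBX24), also 12.5%, beside 4.79%. The shorter core ACGT, which every G-box contains, was in 43.8% of BBX windows and 44.1% of the windows of protein-coding genes. Of the 13 members that rose in both genotypes 1 held a G-box, 2 held an evening element and 6 held the ACGT core, and of the 8 that fell in both, 0, 1 and 2 did. With the 50 bases after the start added to the window, the G-box was in 5 of 32 (15.6%, beside 7.68% of protein-coding genes), the evening element in 5 (15.6%, beside 5.65%) and the ACGT core in 53.1% (beside 49.9%). In that longer window 2 of the 13 risers held a G-box, 2 an evening element and 9 the ACGT core, or 69.2%, and of the 8 fallers 0, 1 and 2 did. These shares describe letters in a window and no test was made of them.

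No BBX member was called between the genotypes in the dark. Of the 29 tested members 0 were higher and 0 were lower in the double mutant than in the wild type by edgeR, and 0 by DESeq2 and by limma-voom. The background was 0.0270% of genes higher and 0.0270% lower. At an unadjusted p under 0.05 the dark comparison held 1 member, beside 743 of the 18487 genes tested. That member was BBX30 (log2 fold change -2.65, adjusted p = 1 by edgeR), which rests on 1 count in the double mutant and 8 in the wild type. For BBX6 (0.12) and BBX20 (0.27) every double mutant dark library was above every wild type dark library, and neither passed. The share of all genes with such separation was not counted. The median absolute difference of the tested members was 0.082 log2 units, beside 0.11 for all genes tested.

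In red light 0 of 29 members were higher and 0 were lower in the double mutant than in the wild type, again by edgeR, DESeq2 and limma-voom, with backgrounds of 0.0541% higher and 0.0270% lower. An unadjusted p under 0.05 was reached by 3 of the 29 members, beside 849 of the 18487 genes tested. Each of the 3 was lower in the double mutant. BBX7 differed by -0.60 (adjusted p = 0.922) and BBX31 by -0.42 (adjusted p = 0.939), and for both every double mutant red library was below every wild type red library. The share of all genes that separate in this way was not counted, so the separation is no result about these members. BBX32 differed by -0.27 (adjusted p = 0.999), and its libraries overlapped. The HY5 cofactors had differences of -0.041 for BBX20, -0.10 for BBX21 and 0.19 for BBX22, beside a median absolute difference of 0.10 over the tested members and 0.11 over all genes tested.

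The red light response of the family was then compared between the genotypes directly, as the response in the double mutant minus the response in the wild type. No member was called (0 of 29 by edgeR, with 0% of genes called higher and 0% called lower), and none was under DESeq2, limma-voom or any other alternative run. The difference was within 0.5 log2 units for 24 of the 29 tested members, and it was positive for 12 and negative for 17. Its 95% interval stayed within 1 log2 unit of 0 for 19 members and within 0.5 for 13, so for the remaining members a difference of that size was not excluded. Narrow intervals were those of BBX4 (-0.21 to 0.20), BBX24 (-0.33 to 0.079), BBX21 (-0.36 to 0.096) and BBX3 (-0.27 to 0.19). Wide ones were those of BBX30 (0.24 to 4.69) and BBX23 (-2.02 to 2.26), whose low groups hold few counts, and the BBX23 difference of 0.12 became -3.74 without double mutant red replicate 1. An unadjusted p under 0.05 was reached by BBX7 (-0.65) and BBX30 (2.47), both with an adjusted p of 1. Over all genes, 613 of 18487 reached that level and 0 passed after adjustment by edgeR, while DESeq2 called 1 and the edgeR fit with no filter on low counts called 20 higher and 8 lower of 25938.

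**Figure D4:**
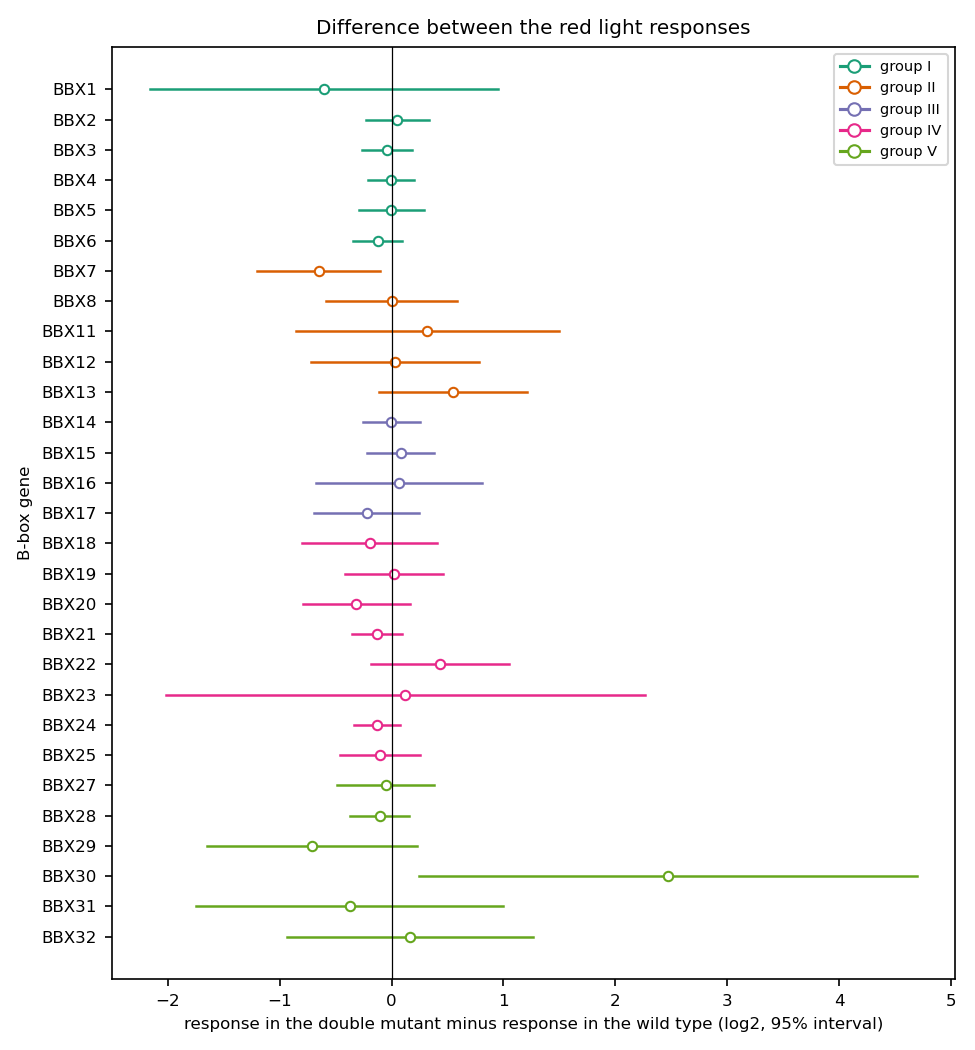
Difference between the red light responses of the 29 tested BBX genes. The horizontal axis gives the log2 response in the double mutant minus that in the wild type with its 95% interval, coloured by structural group. All but 2 intervals, those of BBX7 and BBX30, include 0, and no member passed after adjustment.

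Genes that act with BBX proteins were followed through the same fits. Of 19 partners and regulators in photomorphogenesis, all tested, 12 rose and 2 fell in the double mutant, and 10 rose and 2 fell in the wild type, with median log2 fold changes of 1.10 and 1.10. Beside these and the lists below stand 10.7% of all genes tested higher and 5.27% lower in the double mutant and 10.6% and 4.68% in the wild type, with medians of -0.014 and -0.021. HY5 rose by 2.39 and 2.39, and the UVR8 repressors RUP1 and RUP2 by 2.99 and 3.02 and by 3.25 and 3.14, in the double mutant and the wild type. PIF5 rose by 2.02 and 1.89. Of 12 genes of the CO pathway 8 were tested, 6 rose in each genotype and none fell, with medians of 0.64 and 0.66, and FT, TSF, SOC1 and FKF1 had too few counts to test. GI rose by 3.37 and 3.25 and the CO repressors CDF3 and CDF5 by 1.72 and 2.19 and by 0.60 and 0.73. CDF1, the next by p in the wild type, rose by 2.44 there. In the double mutant CDF1 averaged 3.90 CPM in red light, against 0.873 CPM in the dark. ZTL, the next by p in the double mutant, rose by 0.69 there. In the wild type ZTL averaged 29.18 CPM in red light, against 18.97 CPM in the dark. Of 8 flavonoid and greening genes downstream of HY5 and its BBX cofactors, 8 rose in the double mutant and 7 in the wild type, with medians of 1.12 and 0.94. Those with the smallest p were F3H (2.86 and 2.87), CHI (1.55 and 1.56), GUN5 (0.74 and 0.65) and HEMA1 (0.73 and 0.68). None of the tested genes of these 3 lists was called between the genotypes in the dark, in red light or in the difference of responses.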

How the data were processed

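Total RNA of 12 seedling libraries was sequenced by 3′ Tag-Seq, per the labels' protocols, and the authors deposited 1 table of raw read counts per gene. Of tools, FastQC, HISAT2, HTSeq and edgeR are named, without versions or order, and TAIR10 as the build, per the submitters' processing notes; whether counting used strand is not stated there. The 5 summary lines of the table were left out, and reads ambiguous between genes came to 0.943 to 1.28% of gene counts.

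All 12 libraries were fitted together in edgeR 4.0.16 (R 4.3.3) by the quasi-likelihood test, with 1 term per group, TMM factors and filterByExpr at a minimum count of 10, and p-values were adjusted by Benjamini-Hochberg over the 18487 genes kept. CPM use TMM-scaled library sizes. Replicate libraries differed by more than sampling noise (chi-square per degree of freedom at least 1.54). Intervals on count ratios are exact at 95% and, like floors of 3 counts, cover counting error only. Alternatives were RLE factors, DESeq2 1.42.0, limma-voom (limma 3.58.1), other count filters, a replicate block, fits on the contrasted groups alone and leaving out libraries.

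Members and gene lists were chosen with earlier results of these data known. Every member is accounted for, values in every library are given for members called with at least 1 log2 unit, and up to 4 genes of smallest p are named for each list. Positions and promoters come from the TAIR10.1 RefSeq annotation; a planned comparison of protein sequences was not made.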

Additional observations from a re-analysis of the deposited data

How the results depend on the processing

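The counts of BBX members called higher and lower by red light kept to 13 or 14 higher and 7 or 8 lower in the double mutant and to 13 or 14 higher and 8 or 9 lower in the wild type under every alternative, and 0 members were called between the genotypes or in the difference of responses under any. Leaving out each library in turn gave 13 to 14 higher and 7 to 8 lower in the double mutant and 13 to 13 higher and 8 to 9 lower in the wild type. The same replicate number did not pair the libraries (correlations of deviations between -0.17 and 0.15), and with the replicate block the counts were 13 higher and 8 lower in the double mutant and 13 and 9 in the wild type. Libraries of different number did share deviations, with 0.349 between double mutant dark replicate 3 and wild type dark replicate 1. Double mutant red replicate 3 and wild type red replicate 2 correlated with wild type dark replicate 1 at 0.178 and 0.195. A block by replicate number cannot take up such shared deviations, so that fit is no check on them. Of 2851 values of single members, 12 calls were lost, all of BBX8, 5 were gained (BBX11 with 2, BBX12 with 2, BBX5 with 1) and 0 reversed among called values. The BBX8 calls were lost without both dark libraries that stand apart (adjusted p = 0.109 in the double mutant and 0.145 in the wild type), under DESeq2 (0.0799 and 0.106), and without double mutant red replicate 1 or 3 or dark replicate 1 or 3, or wild type red replicate 2 or 3 or dark replicate 1 or 2; the cause was not tested. BBX11 passed in the double mutant with no filter on low counts (adjusted p = 0.0343) and without red replicate 3 (0.0466), BBX12 without double mutant red replicate 1 (0.0381) or wild type red replicate 2 (0.0331), and BBX5 in the wild type without dark replicate 2 (0.0409). With no filter BBX10 had an adjusted p of 0.172 in the double mutant and 0.0318 in the wild type. Over all genes, those differing between the genotypes in red light went to 19 higher and 24 lower with the red groups alone and to 21 and 25 without both dark libraries that stand apart, against 10 and 5 in the fit reported, and with no filter to 29 and 39 in red light, 24 and 45 in the dark, against 5 and 5, and 20 and 8 for the difference of responses, against 0 and 0 (1 and 0 under DESeq2, 1 and 1 without both dark libraries that stand apart). Leaving out each library in turn gave, over all genes, 3 to 11 higher and 5 to 7 lower in red light, 4 to 8 and 4 to 19 in the dark, with 5 and 19 without wild type dark replicate 2 and 8 and 7 without wild type dark replicate 1, and 0 to 2 and 0 to 1 for the difference, with 2 and 1 without wild type dark replicate 1. Depth limits BBX1, BBX9, BBX10, BBX23 in red light, BBX26, and BBX30 to BBX32 in the dark, where libraries hold few counts or none.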

Other observations

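Some members lie next to each other in the genome. BBX10 (chr3:7706257-7708346, plus strand) and BBX31 (chr3:7708833-7709933, minus strand) face each other tail to tail, and in red light BBX10 had 2, 1 and 2 counts in the double mutant and 2, 4 and 4 in the wild type, while BBX31 had 110, 74 and 99 and 121, 127 and 137. BBX30 (chr4:8708841-8709482, plus strand) and BBX9 (chr4:8709767-8711526, minus strand) are placed in the same way, and BBX9 had no count in any red library while BBX30 had 101, 82 and 97 in the double mutant and 111, 82 and 133 in the wild type. In each pair a CO-like gene of group II with few or no counts adjoins a microProtein gene of group V. On chromosome 5 CO and BBX2 lie in tandem on the minus strand, and BBX2 rose in both genotypes while CO did not pass the test.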
